A study of Mus musculus with 2 samples.

Results

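5-Hydroxymethylcytosine (5-hmC) at genes of the Wnt and Notch signalling pathways was compared between imiquimod-treated and Vaseline-treated mouse epidermis. The members were 6 genes, Wnt7b, Rspo1, Lrp5, Axin2, Ccdc88c and Notch1, and every region of the deposited table whose gene list holds 1 of these symbols was taken. This gave 7 of the 364 listed regions, 2 of them in Ccdc88c and 1 in each other gene. The members were chosen by pathway with their average pileups in both libraries known. The table itself holds only regions selected on a difference of about 2-fold in those averages and on a minimum number of sequenced tags. The direction and size of each difference therefore describe the choice and carry no test.

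Both groups were C57BL/6J mice aged 6 weeks, wild type by the WT in the column names, and in each the epidermis was peeled from punch biopsies with dispase. The imiquimod group received a 5% imiquimod cream on shaved back skin and on the right ear, at 3.125 mg of active compound per day over 6 days. The control group received Vaseline as the vehicle in the same way. Imiquimod, a Toll-like receptor 7 agonist, is used on mouse skin to raise a psoriasis-like inflammation. DNA fragments carrying 5-hmC were pulled down with an antibody and sequenced (hMeDIP-seq), with 1 library per group. How many mice stand behind a library is unknown here, replicate spread cannot be measured, and no p-value between the groups can be had. The columns named WT-treated and WT-control were matched to imiquimod and Vaseline by those words alone, on which every direction rests. The DNA table holds no cell type marker level, so the epidermal label was not checked. In such a bulk sample, fewer cells carrying the mark and less of it per cell cannot be told apart. Over all listed regions the estimated tags (sequenced fragments) summed to 12942 in the imiquimod library and 19445 in the Vaseline library. In the library with more tags, every listed region had at least 49.5. How the authors scaled the libraries to each other is unknown here.

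In the Wnt pathway, secreted Wnt ligands bind Frizzled receptors together with LRP5 or LRP6, which keeps beta-catenin from being degraded and lets it drive transcription; R-spondins strengthen the signal, and Axin proteins hold the complex that marks beta-catenin for destruction. In the Notch pathway, ligands on a neighbouring cell cause the Notch receptor to be cut, and its inner part moves to the nucleus. In skin, Wnt signalling is known for hair follicle formation and growth, and Notch1 for moving keratinocytes from proliferation to differentiation. 5-hmC is made from 5-methylcytosine by TET enzymes, mostly at CG dinucleotides in mammals, and is often found in gene bodies and enhancers.

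Coding exons accounted for at least 100 bases of 3 of the 7 regions, those in Notch1, Lrp5 and Ccdc88c. These stretches are shown because they are the coding letters that fall inside regions with less 5-hmC signal in imiquimod epidermis. They were read from the GENCODE M21 transcripts (GRCm38, the assembly mm10 names), 5′ to 3′ on the minus strand of the genome, which is the coding strand of all 3 genes. Capitals mark each CG dinucleotide, the usual substrate, and do not show which cytosines carried the mark.
Notch1 exon 20, chr2:26471152-26471305: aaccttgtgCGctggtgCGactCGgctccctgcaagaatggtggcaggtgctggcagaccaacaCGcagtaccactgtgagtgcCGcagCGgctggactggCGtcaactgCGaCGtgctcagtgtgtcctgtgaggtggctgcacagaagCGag
Notch1 exon 21, chr2:26470822-26471006: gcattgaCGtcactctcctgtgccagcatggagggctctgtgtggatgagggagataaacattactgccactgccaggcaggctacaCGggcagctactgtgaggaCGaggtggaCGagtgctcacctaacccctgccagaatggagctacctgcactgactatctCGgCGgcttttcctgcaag
Lrp5 exon 9, chr19:3620062-3620304: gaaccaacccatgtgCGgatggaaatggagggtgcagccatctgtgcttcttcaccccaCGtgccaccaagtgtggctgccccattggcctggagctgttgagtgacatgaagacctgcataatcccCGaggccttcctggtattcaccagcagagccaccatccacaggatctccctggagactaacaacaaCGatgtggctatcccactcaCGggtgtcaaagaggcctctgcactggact
Ccdc88c exon 18, chr12:100940085-100940270: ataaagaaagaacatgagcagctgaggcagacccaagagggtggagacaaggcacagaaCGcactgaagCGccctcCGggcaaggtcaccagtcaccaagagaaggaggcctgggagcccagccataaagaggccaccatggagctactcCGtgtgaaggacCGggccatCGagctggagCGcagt

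The Notch1 stretches held 10 CG dinucleotides in 154 bases of exon 20 and 6 in 185 bases of exon 21, which together is 4.72 per 100 bases. Ccdc88c exon 18 held 7 in 186 bases (3.76 per 100), and the part of Lrp5 exon 9 inside its region held 5 in 243 bases (2.06 per 100). Among the 115 listed regions with at least 100 coding bases of an assigned gene, 111 of them lower and 4 higher in imiquimod, the median was 4.41 CG per 100 coding bases (quartiles 3.32 and 5.52). Notch1 ranked 51st, Ccdc88c 74th and Lrp5 113th from the most to the least CG-rich. The pileups are averages over whole regions, so no signal of the coding part alone was measured. Their GC contents, 59.6% for Notch1, 59.1% for Ccdc88c and 56.4% for Lrp5, lay near or under the median of 59.4%.

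Of the 7 regions, 6 had a lower average tag pileup in imiquimod than in Vaseline epidermis, in Wnt7b, Lrp5, Axin2, Ccdc88c (both regions) and Notch1, and 1 was higher, beside Rspo1. Among all 364 listed regions, 74.5% were lower and 25.5% higher in imiquimod. The average pileup is the mean number of tags stacked over the windows of a region. Intervals of ratios are exact 95% intervals from the tag numbers of both libraries. These tag numbers were estimated from the average pileups and rounded to whole numbers, and are not read counts. The intervals express the counting error of the estimated tags and nothing else. Neither the selection of the regions nor a scaling of the libraries is allowed for in them.

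**Figure D1:**
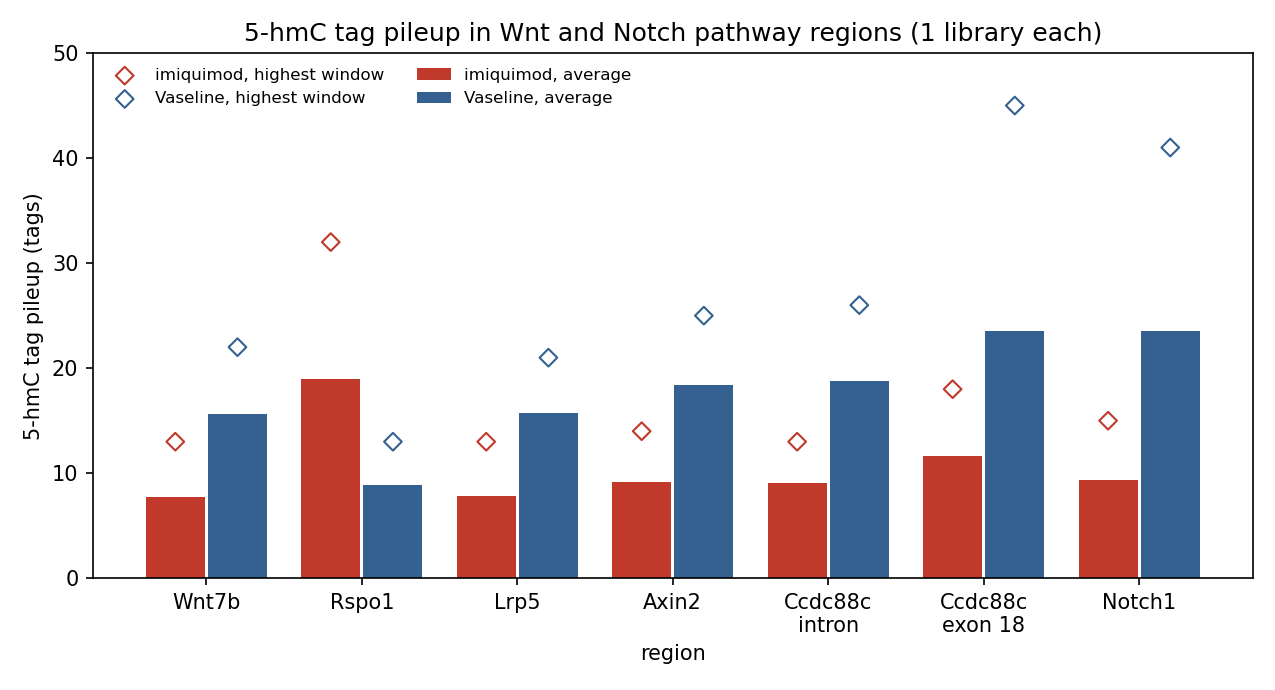
Average tag pileup (bars) and highest pileup of any window (diamonds), in tags, for the 7 regions in the imiquimod library (red, left) and the Vaseline library (blue, right), 1 library each. Imiquimod lies under Vaseline in all regions but that of Rspo1, where the averages are 18.9 and 8.90.

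Among the ligands and agonists, the 2 genes differed in direction. Wnt7b encodes a Wnt ligand that acts through beta-catenin. Its region, chr15:85576660-85577514 (mm10), had an average pileup of 7.78 in imiquimod and 15.7 in Vaseline epidermis, with 13 and 22 tags in the highest window. This corresponded to about 29.7 tags in imiquimod and 59.7 in Vaseline and a log2 ratio of -1.01 (interval -1.68 to -0.34). The region lies in the first intron of the main gene model on the minus strand, 4734 bp from its start and 10.2% along it. It is the only one of the 7 regions with a CpG island in the authors' annotation, which 27 of all 271 lower and 1 of 93 higher regions have. It also has 1 annotated promoter. Of the 5 basic transcripts of Wnt7b, Wnt7b-204 starts inside the gene, 983 bp from the middle of the region. Its coding first exon reaches 7 bp into the region, 0.819% of its length, and the rest of the region is intronic, downstream of that inner start. The authors' table also assigns the region to AU022754, an antisense RNA gene, as lying 4055 bp upstream of that gene's start.

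Rspo1 encodes R-spondin 1, a secreted protein that amplifies Wnt signals through LGR receptors. The region assigned to it, chr4:125013804-125014416, had an average pileup of 18.9 in imiquimod and 8.90 in Vaseline epidermis, and 32 and 13 tags in the highest window. About 51.8 tags stood in the imiquimod library against 24.3 in the Vaseline library, a log2 ratio of 1.09 (interval 0.39 to 1.88). An enriched interval had been called here in imiquimod and not in Vaseline, as in 69 of the 93 higher regions (74.2%). The region is not inside Rspo1: it begins 4705 bp past the end of the gene and 27680 bp separate its middle from the Rspo1 start. The nearest annotated start is that of Gnl2, the gene of a nucleolar GTPase, at 2475 bp. The authors' table lists Rspo1 alone for this region, so the link to Rspo1 rests on that assignment and not on overlap.

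For the receptor side of the Wnt pathway, Lrp5 encodes the co-receptor that Wnt ligands engage with Frizzled. In chr19:3620062-3620864 the average pileup was 7.81 in imiquimod and 15.7 in Vaseline epidermis, with 13 and 21 tags in the highest window. Tag numbers of 28.0 in imiquimod and 56.3 in Vaseline gave a log2 ratio of -1.01 (interval -1.71 to -0.32). The region takes in part of exon 9 of 23 and intron 8 before it, 65.0% along the gene, and the exon letters shown above make up 30.3% of it. They belong to codons 600 to 681, in the part of the protein outside the cell. Of the 7 regions, this one had the smallest difference in the highest window, 1.62-fold.

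Axin2 encodes a scaffold of the beta-catenin destruction complex that is itself a target gene of Wnt signalling, and so a feedback inhibitor. Its region, chr11:108946820-108947521, had average pileups of 9.18 in imiquimod and 18.4 in Vaseline epidermis, and 14 and 25 tags in the highest window. The tag numbers were 28.7 in imiquimod and 57.6 in Vaseline, with a log2 ratio of -1.004 (interval -1.70 to -0.33). It lies in intron 10, the last intron of a gene with 11 exons, 88.1% along the gene and 773 bp from the nearest exon. The Axin2 value sits closest to the selection limit of all 7, at 2.005-fold lower. Just outside that limit the table holds only 2 regions, the smallest at 1.9998-fold.

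Ccdc88c encodes Daple, a Dishevelled-binding protein for which both inhibition of beta-catenin signalling and promotion of beta-catenin-independent Wnt signalling have been described. It was the only member with 2 listed regions, where 30 of the 399 genes in the table have 2 or more, and both were lower in imiquimod. The first along the gene, chr12:100973826-100974542, lies in intron 4, 2547 bp from the nearest exon, and averaged 9.09 in imiquimod and 18.8 in Vaseline epidermis. Its highest windows held 13 and 26 tags, its tag numbers were 29.1 and 60.2, and its log2 ratio was -1.05 (interval -1.74 to -0.39). The second, chr12:100939881-100940388, holds the whole of exon 18 of 30 (codons 995 to 1056), shown above, which is 36.6% of the region. It averaged 11.6 in imiquimod and 23.6 in Vaseline epidermis, with 18 and 45 tags in the highest window. From 26.3 tags in imiquimod and 53.3 in Vaseline its log2 ratio was -1.02 (interval -1.76 to -0.32). The 2 regions lie 33438 bp apart. The authors numbered 15 regions between them, 0 of which are in the table. An unlisted region may have had a smaller difference or too few tags, so the signal along the gene between the 2 regions is unknown.

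The ratio of the highest window to the average describes how peaked the signal was. In the Vaseline library it was 1.91 at Ccdc88c exon 18, 1.74 at Notch1 and 1.33 to 1.40 at the other 4 lower regions, where the median of all 271 lower regions was 1.63. In the imiquimod library this ratio was 1.55 for exon 18 and spanned 1.43 to 1.67 over the 6 regions, with a median of 1.66 over all lower regions. The difference at exon 18 was therefore larger in the highest window, 2.5-fold, than in the average, 2.03-fold. Exon 18 was also the only lower region of the 7 with an enriched interval called in both libraries, a pattern of 16 of all 271 lower regions (5.9%). The authors further place it 1608 bp upstream of the antisense RNA gene A630072L19Rik, with 1 annotated promoter.

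Notch1, the receptor gene, had the largest difference of the 7 regions. In chr2:26470595-26471460 the average pileup was 9.33 in imiquimod and 23.6 in Vaseline epidermis, and the highest window held 15 and 41 tags. With 36.0 tags in imiquimod and 91.0 in Vaseline, the log2 ratio was -1.34 (interval -1.94 to -0.77), and the interval of the fold difference ran from 1.70 to 3.83. The region covers exons 20 and 21 of 34 and the intron between them, 71.4% along the gene, and 39.1% of it is coding. These exons carry codons 1058 to 1170, within the array of EGF-like repeats outside the cell. By tag number Notch1 ranked 18th among the 271 lower regions, and by size of the difference 45th.

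**Figure D2:**
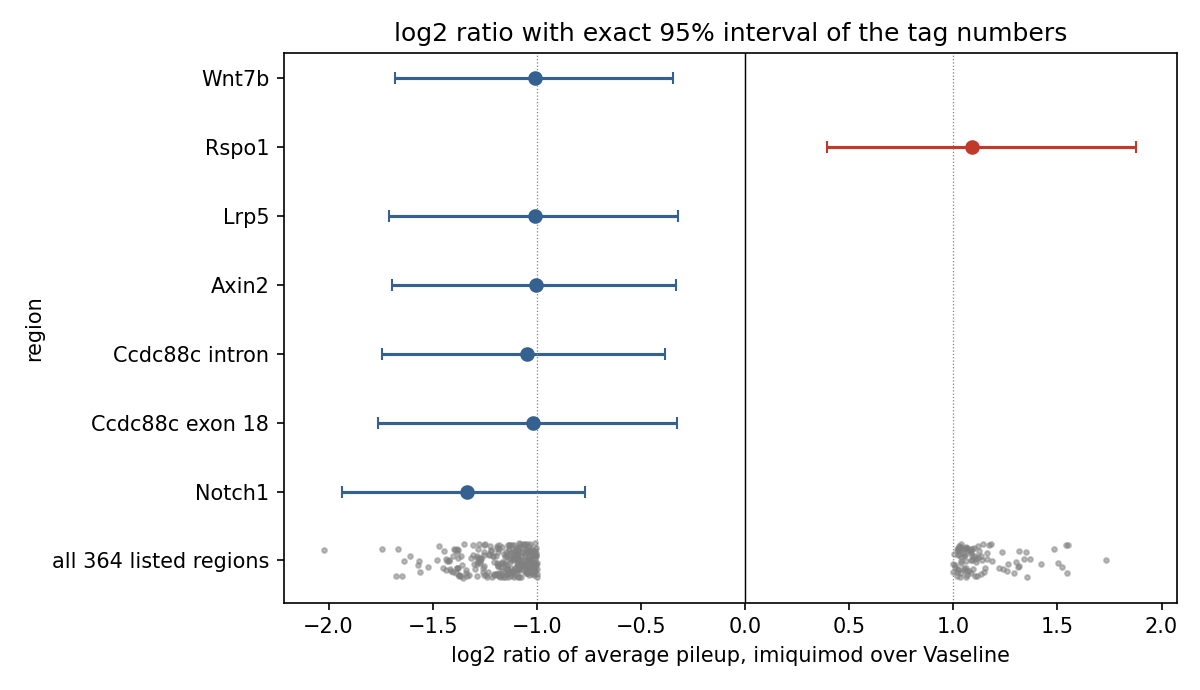
log2 ratio of average pileup, imiquimod over Vaseline, with the exact 95% interval of the tag numbers for each of the 7 regions, above the values of all 364 listed regions (grey, no intervals). Among the 7 regions, Notch1 stands at -1.34, the other lower ones lie between -1.05 and -1.004, and Rspo1 lies at 1.09. Dotted lines mark 2-fold.

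Apart from Notch1, the lower regions were much alike in size and close to the limit. They spanned 2.005-fold to 2.07-fold, where the median of all 271 lower regions was 2.18-fold, and they ranked between 212th and 264th of 271. The intervals of all 6 lower regions overlapped, so their order by size is not resolved at this depth, Notch1 included. Raising the imiquimod values by a factor of 1.002 to 1.035 would bring these 5 regions under 2-fold, and Notch1 would need a factor of 1.26. A rise of less than 5% would do the same to 28.4% of all lower regions. The Rspo1 region, at 2.13-fold, lay at the 46th rank of 93 higher regions, and their median was 2.12-fold.

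**Figure D3:**
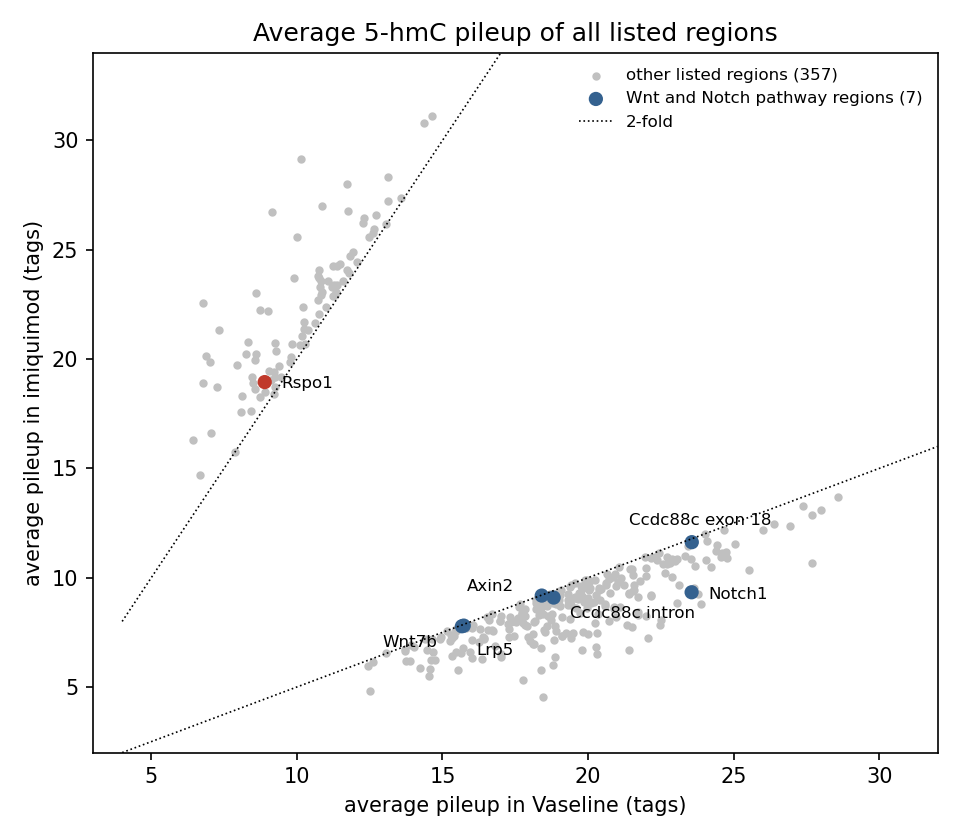
Average pileup in tags in the imiquimod library (vertical) against the Vaseline library (horizontal) for all listed regions (grey, 357 other regions) and the 7 regions of Wnt and Notch genes (blue where lower in imiquimod, red where higher), with dotted lines at 2-fold. Wnt7b and Lrp5 nearly coincide at 7.78 and 7.81 tags in imiquimod. Among the 7 regions, Notch1 lies farther from the line than the other lower ones.

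The average pileups of the lower regions ranged from 7.78 to 11.6 in imiquimod and from 15.7 to 23.6 in Vaseline. The imiquimod averages of all 6 thus lay under the Vaseline average of every one of them. The 2-fold selection favours such a gap, and the medians of all listed lower regions were 8.63 in imiquimod and 19.3 in Vaseline. Among the 6 regions, pileup in Vaseline was highest at Ccdc88c exon 18 and Notch1, ranked 26th and 27th of 364, and lowest at Wnt7b and Lrp5, ranked 238th and 236th. In imiquimod Notch1 ranked 173rd of 364, beside Axin2 at 186th and the Ccdc88c intron at 192nd.

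By the highest window, which comes from the same reads, 3 of the 6 lower regions reached 2-fold: Notch1 (2.73-fold), Ccdc88c exon 18 (2.5-fold) and the Ccdc88c intron (2-fold). Axin2 (1.79-fold), Wnt7b (1.69-fold) and Lrp5 (1.62-fold) did not. Of all 271 lower regions in the table, 74.2% were 2-fold lower by this measure. The Rspo1 region was 2.46-fold higher by it, and 65.6% of the 93 higher regions were at least 2-fold higher.

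Among the members, genes that promote and genes that oppose signalling did not part by direction. Lower regions lay in the agonist genes Wnt7b and Lrp5, in the inhibitor gene Axin2, in Ccdc88c, described as acting both ways, and in the Notch receptor gene Notch1, while the only higher region was assigned to another agonist, Rspo1. Axin2, the inhibitor, and Lrp5, the co-receptor, had log2 ratios of -1.004 and -1.011, which differ by far less than their intervals. Both lie just past the 2-fold limit, as do 28.4% of all lower regions within 5% of it, so this closeness carries no weight. Axin2 is the only inhibitor here and 74.5% of all listed regions are lower, so whether agonists and inhibitors differ in direction cannot be decided.

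Across a list of 131 genes of both pathways, written with the results for the members known, 6 had a lower region, 1 a higher region and 124 none. For comparison, 1.35% of 21924 protein-coding gene symbols had a lower region and 0.233% a higher one, against 4.58% and 0.763% of the list. The list's shares rest on members put there with their values known. Of 54 Wnt agonists, among them 19 ligands and 18 receptors, 2 had a lower and 1 a higher region. Among 32 Wnt inhibitors 1 was lower, Axin2, one of 14 that act inside the cell; the 18 secreted or surface inhibitors, such as the Dkk and Sfrp families, had 0. In the Notch pathway 1 of 4 receptors was lower and 0 of 5 ligands, 0 of 11 processing genes, 0 of 4 nuclear factors and 0 of 7 inhibitors had a region. A gene without a listed region may have had any smaller difference, or too few tags for the selection.

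The remaining list gene was Hes3, of the HES repressor family in which several members are Notch targets. Its region, chr4:152278962-152280258, had average pileups of 7.56 in imiquimod and 15.1 in Vaseline epidermis, 2.003-fold lower (interval 1.38 to 2.94). That region lies inside Gpr153, 12052 bp from the Hes3 start and downstream of Hes3, and is also assigned to Acot7. It therefore bears on Hes3 by distance alone.

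**Figure D4:**
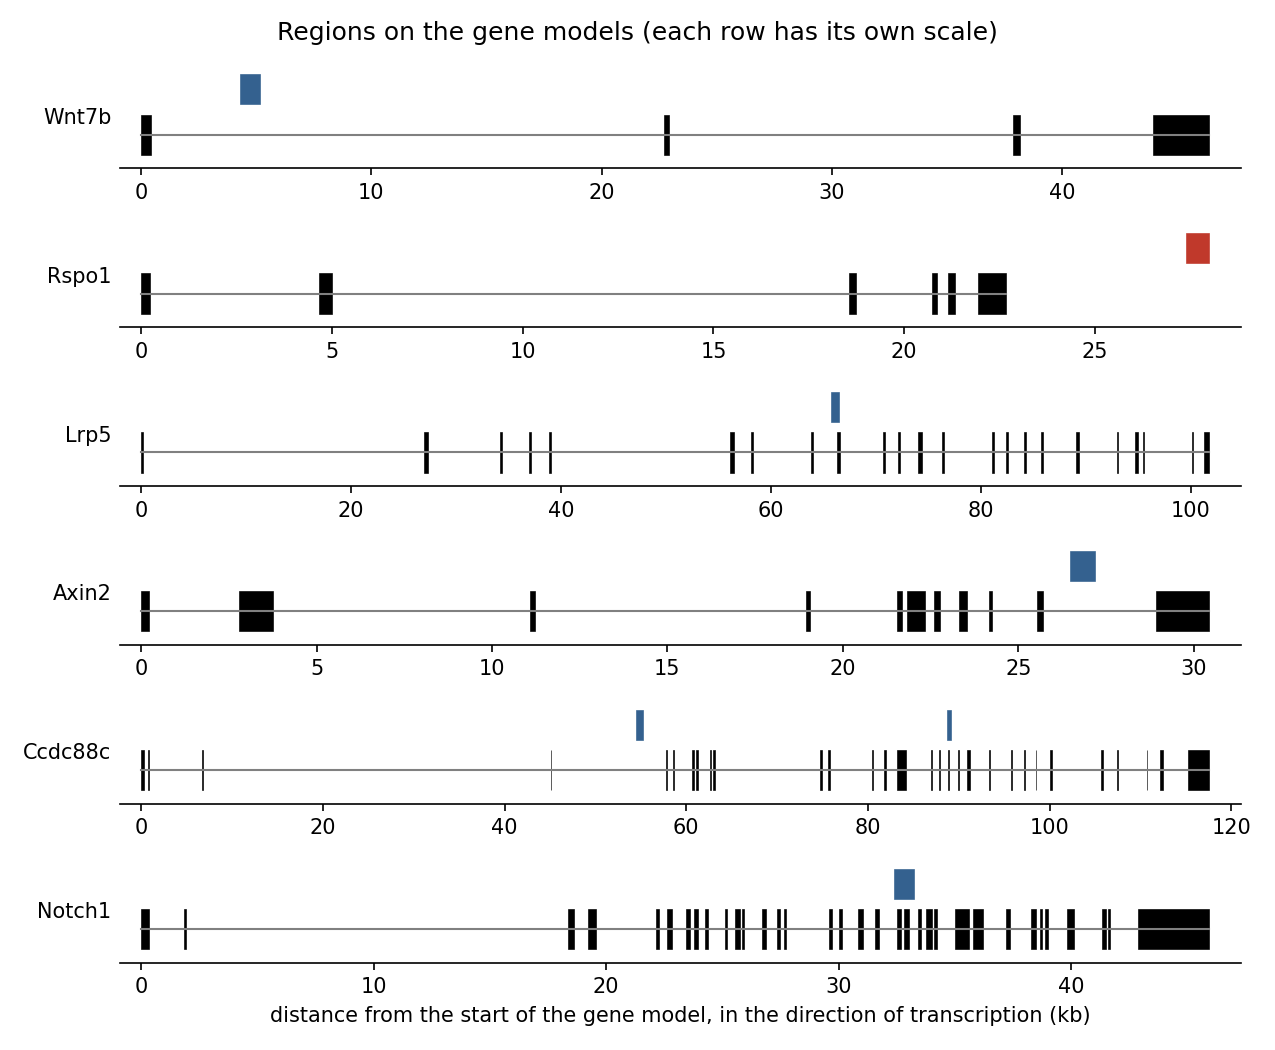
Position of the 7 regions (blue, lower in imiquimod; red, higher) above the exons (black) of each gene model, in kb from the start of the gene in the direction of transcription, each row with its own scale. The regions lie 10.2% along Wnt7b, past the end of Rspo1 and 46.7% to 88.1% along the other genes.

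All 6 lower regions lay inside their gene, as did 83.0% of all lower regions, and the higher region did not, as for about as many higher regions as not (49.5% lay in a gene). No region covered the annotated start of its member gene. Apart from Wnt7b, the lower regions sat in the middle or later part of their genes, from 46.7% along Ccdc88c to 88.1% along Axin2. Coding sequence was touched in 4 of the 6 lower regions, by 7 bp in Wnt7b, and in 44.3% of all lower regions. The coding share was at most 39.1% of a region, in Notch1. The regions were 507 to 865 bp long where lower and 612 bp where higher, against medians of 688 and 578 bp in the table.

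Other listed regions showed pairs of averages almost equal to those of the members. Of 205 other regions with a single assigned gene, those nearest to Notch1 by distance between the log2 averages of both libraries were in Bcam (9.235 in imiquimod and 23.8 in Vaseline), Cotl1 (9.55 and 23.6) and Bsn (9.67 and 23.1). Nearest to Rspo1 were regions in Atp11b (18.5 in imiquimod and 8.91 in Vaseline), Itpk1 (18.2 and 8.75) and Hsd11b1 (18.7 and 9.26). The likeness rests on 2 libraries.

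Listed regions nearest to the member regions on their chromosomes were mostly far away. Besides the Ccdc88c pair, the closest was a region 123114 bp from that of Wnt7b, assigned to the microRNA genes Mirlet7c-2 and Mirlet7b and 2.06-fold lower in imiquimod. The Notch1 region had its nearest neighbour 834197 bp away at Vav2, 2.23-fold lower. For Axin2 and Rspo1 the gap was more than 2 Mb. The neighbour of Rspo1, at Capzb, was 2.03-fold lower while Rspo1 was higher. The neighbour of Axin2, at Mapt and Gm10844, was 2.09-fold higher while Axin2 was lower.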

How the data were processed

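Per the labels' protocols, adapter-ligated epidermal DNA was enriched with an antibody to 5-hmC before Illumina sequencing. The submitters' processing notes name CASAVA, MACS2 and mm10 and give no versions. No source used here states the aligner, the handling of duplicates, an input control or the scaling. Intervals of 4 libraries were merged into regions by the authors, per the file headers, and 6 columns of the other libraries were not used. The deposited signal is the average and the highest tag pileup per region. The authors' deposited tag score equals the larger average times length over 224, and their deposited log2 ratio equals that of the averages, in all 364 regions (tolerance 1e-06); tag numbers were computed likewise. Total depth is unknown.

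Ratios are imiquimod over Vaseline with Clopper-Pearson intervals at 95%. These were checked on simulated tag numbers with counting error alone, so the check does not cover the selection of regions or the scaling. Reads carry no molecular identifiers, so tags need not be independent molecules. With 1 library per group no test was made. Positions are as deposited, where end minus start equals length. Overlaps and gene-model positions used the GENCODE M21 basic annotation and, for each member, its transcript numbered 201; distances to member starts are the authors'. The members, gene lists and alternatives were chosen with earlier results of these data known. Named genes were the members, list genes with a region, genes sharing a region with a member, the 3 regions most alike to Notch1 and to Rspo1, and the nearest listed neighbours, of which 1 is not reported here. Alternatives were the highest pileup, other scalings, pseudocounts, stricter limits and regions inside genes. Software was Python 3.11.15, numpy 2.4.6, pandas 2.3.3, SciPy 1.17.1 and matplotlib 3.10.9.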

Additional observations from a re-analysis of the deposited data

How the results depend on the processing

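The log2 ratios of all 7 regions stayed within their own intervals and kept their sign under the highest pileup, equal sums of the averages (a factor of 1.40 on imiquimod), a 15% rise of the imiquimod values, and pseudocounts of 1 and 10; by construction, no such scaling and no pseudocount could have reversed a 2-fold difference. Counts at 2-fold moved. Members with a lower region, 5 as listed, numbered 2 by the highest pileup, 0 with equal sums, and 1 each with the 15% rise, a pseudocount of 1, a minimum of 75 tags and a 2.5-fold limit. That 1 was Notch1 in each case. Genes of the 131-gene list with a lower region, 6 as listed, numbered 2, 0, 1 and 1 under the first 4 of these, 2 at 75 tags and 1 at 2.5-fold. The 1 member, also the 1 list gene, with a higher region, Rspo1, dropped to 0 at 75 tags, at 2.5-fold and with regions inside the gene only. Both stricter limits lie above the medians of all listed lower (2.18-fold, 56.6 tags) and higher regions (2.12-fold, 55.9 tags). The 15% rise and equal sums likewise bring the lower median under 2-fold. By the highest pileup, 74.2% of all lower regions reached 2-fold. Shares of all listed regions under the other settings were not computed. Members with a region over coding exon, 4 with any overlap, were 0 where at least 50% of the region had to be coding. The share of all listed lower regions at that 50% limit was not computed, so the 0 has no comparison. CG density over whole regions and their central 300 bp was not run. No paired analysis was possible because each group has 1 library, and no replicate could be left out. At about 26 to 91 tags per library, the intervals do not separate the lower regions from each other.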
